A study of Mus musculus with 12 samples.

Results

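Transcripts of 10 genes of oocyte differentiation were followed in the fetal mouse ovary at E16.5. They were chosen by gene identifier, and all 10 of 10 were found on the chromosome given for them among 55416 annotated genes. The genes were Figla, Nobox, Lhx8, Sohlh1, Sohlh2, Taf4b, Gdf9, Bmp15, Zp3 and Dppa3. The study compared Fmr1 knockout (KO) with wild-type (WT) ovaries, with 3 libraries of input RNA per genotype and 3 of RNA pulled down with anti-FMRP antibody (RIP). FMRP is the RNA-binding protein that Fmr1 encodes. Each sample was made from 5 pairs of ovaries, and samples are named as biological replicates. The strain field gives B6.129P2-Fmr1tm1Cgr/J for KO and WT samples alike, WT input came from littermates per the design text, and the labels do not say whether KO ovaries were homozygous for the null allele. Input libraries held 18880238 to 25707718 counted reads. Fmr1 itself had 85.6, 123 and 93.4 CPM (reads scaled to library size) in KO input, against 204, 213 and 221 CPM in WT input, so that the groups did not overlap and KO stood at 47.3% of WT (adjusted p = 0.00775, edgeR).

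At this stage female germ cells are in meiotic prophase, before primordial follicles form. Sohlh1 and Sohlh2 encode basic helix-loop-helix transcription factors of the germ line that act upstream of Lhx8, a LIM homeobox factor, and of Nobox, an oocyte homeobox factor. Figla encodes a basic helix-loop-helix factor needed for follicle formation and for transcription of the zona pellucida genes, and Taf4b encodes a germ cell enriched subunit of the general transcription factor TFIID. Gdf9 and Bmp15 encode growth factors of the TGF-beta family secreted by oocytes, Zp3 encodes a glycoprotein of the zona pellucida, and Dppa3 encodes a maternal protein that protects DNA methylation after fertilisation and also marks primordial germ cells.

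Basic helix-loop-helix factors recognise the E-box, CANNTG, and the upstream sequences of 4 of the genes are shown: Sohlh1, Sohlh2 and Figla because they encode such factors, and Zp3 because it is a known target of Figla. The 250 bases before the annotated RefSeq (GRCm38.p6) start were searched for 7 of the 10 genes. No such sequence was available for Gdf9 and Dppa3, and Taf4b was left out of the search, so the counts below do not cover it. The sequences are written in the direction of the gene, with every CANNTG in capitals.
Sohlh1 (chr2:25847249-25847498, minus strand): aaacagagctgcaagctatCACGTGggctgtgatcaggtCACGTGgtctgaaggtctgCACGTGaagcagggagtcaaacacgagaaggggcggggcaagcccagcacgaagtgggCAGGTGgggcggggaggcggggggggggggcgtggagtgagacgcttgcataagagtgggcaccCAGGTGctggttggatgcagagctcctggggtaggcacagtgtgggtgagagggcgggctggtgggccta
Figla (chr6:86016941-86017190, plus strand): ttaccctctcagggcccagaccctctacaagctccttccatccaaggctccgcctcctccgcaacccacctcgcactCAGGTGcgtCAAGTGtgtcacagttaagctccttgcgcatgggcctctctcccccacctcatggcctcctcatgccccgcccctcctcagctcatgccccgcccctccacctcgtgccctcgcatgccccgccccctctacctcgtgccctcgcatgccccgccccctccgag
Zp3 (chr5:135979855-135980104, plus strand): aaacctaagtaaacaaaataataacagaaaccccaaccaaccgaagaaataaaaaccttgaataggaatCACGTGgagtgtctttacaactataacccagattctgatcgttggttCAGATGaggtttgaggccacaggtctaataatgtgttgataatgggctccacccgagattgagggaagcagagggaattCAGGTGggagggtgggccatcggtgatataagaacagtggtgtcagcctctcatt
Sohlh2 (chr3:55181794-55182043, plus strand): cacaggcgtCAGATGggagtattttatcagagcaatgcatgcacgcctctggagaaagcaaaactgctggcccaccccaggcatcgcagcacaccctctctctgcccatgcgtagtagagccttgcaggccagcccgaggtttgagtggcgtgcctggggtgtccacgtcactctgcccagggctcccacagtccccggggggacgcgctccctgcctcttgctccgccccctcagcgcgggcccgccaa
The Sohlh1 window held 5 matches, of which 3 were CACGTG and 2 were CAGGTG. The Zp3 window held 3 matches. Its CACGTG began 181, its CAGATG 134 and its CAGGTG 55 bases before the annotated start. The Figla window held 2 matches, the Sohlh2 window held 1, and the Lhx8 window, not printed, held 0. Over all 32851 windows of the same length, 66.2% held CANNTG, which reads the same on both strands in this notation, and 6 of the 7 windows did. The more specific CACGTG, which is contained in CANNTG, was in 6.02% of all windows and in those of Sohlh1 and Zp3. CAGGTG, or on the other strand the letters CACCTG, also contained in CANNTG, was in 17.2% of all windows and in those of Figla, Nobox, Sohlh1 and Zp3. The homeobox-type letters TAATTG, or on the other strand CAATTA, were in 7.17% of all windows and in 0 of the 7, and TGATTG, or on the other strand CAATCA, were in 12.7% and in the Bmp15 window only of the 7. Such matches describe the letters and do not show binding.

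The first comparison asked whether the abundance of these transcripts differed between KO and WT ovaries. None of the 10 passed the test (edgeR's quasi-likelihood test over 23698 genes, Benjamini-Hochberg adjusted p under 0.05), where 0.0422% of all tested genes did. The low-count filter kept 8 of the 10, and Zp3 and Dppa3 were below it. Of the 8, 6 had estimates above 0 and 2 below, with a median log2 change (KO over WT) of 0.066, against -0.0020 over all tested genes. With no filter the median over all 10 was 0.074, against -0.0057 over 49570 genes. The KO and WT libraries overlapped for each of the 10 genes, while 10.9% of all tested genes had groups that did not overlap. In whole ovary, fewer cells of a type and less RNA per cell cannot be told apart.

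**Figure D1:**
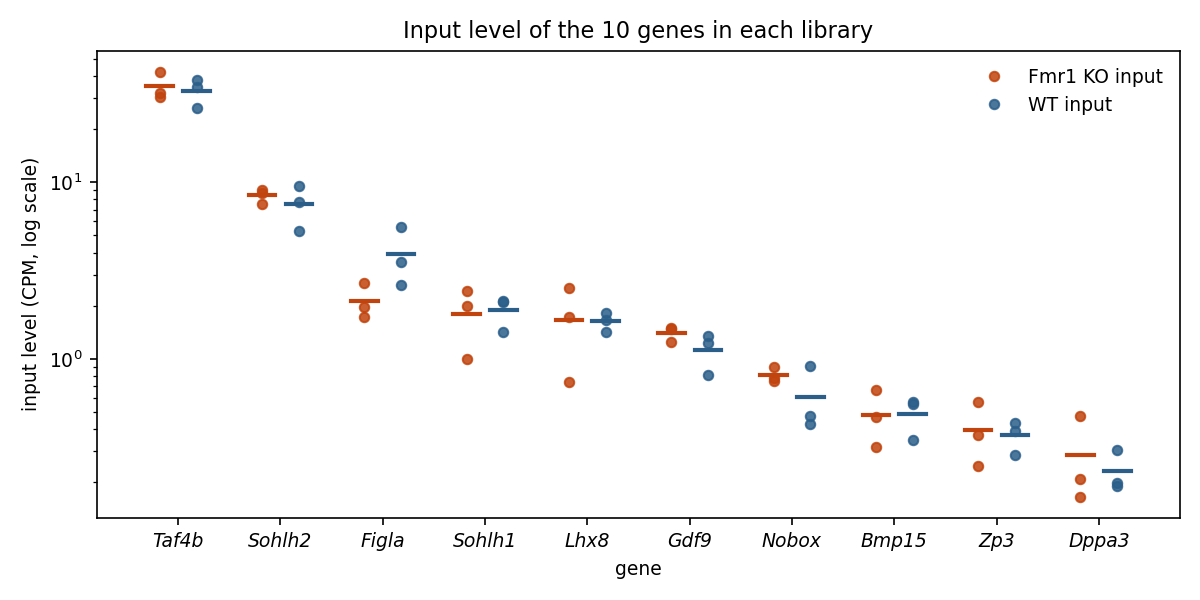
Input level of each gene in each library, in CPM on a log scale, for 3 Fmr1 KO libraries (left of each pair) and 3 WT libraries (right). Bars are group means. Taf4b lay highest, between 26.2 and 42.1 CPM, and Figla had the widest gap between group means, with groups that still overlapped.

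Among the transcription factors, Figla (ENSMUSG00000030001, chromosome 6, 85993153 to 85997978, 4 exon blocks, exonic length 836 bp) showed the widest gap. It had 33, 65 and 37 reads in KO libraries and 66, 128 and 75 reads in WT libraries, which correspond to 1.72, 2.70 and 1.96 CPM in KO and 2.60, 5.59 and 3.56 CPM in WT. KO replicate 2 lay above WT replicate 1, so that the groups overlapped, and WT replicate 2 stood apart as the highest library. KO libraries averaged 2.13 ± 0.51 CPM and WT libraries 3.92 ± 1.52 CPM (SD, n = 3 each), with KO at 54.3% of WT. The log2 change was -0.87 (SE 0.29, 95% interval -1.47 to -0.26), with an unadjusted p of 0.00711 and an adjusted p of 0.610 (edgeR), so Figla did not pass. It was the only one of the 8 at an unadjusted p under 0.05, a mark that 5.9% of all tested genes reached. Without WT replicate 2 the log2 change was -0.52 (adjusted p = 0.999). The spread between WT libraries, with a coefficient of variation of 38.9%, was above the 10.6% that counting alone would give.

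Sohlh1 (ENSMUSG00000059625, chromosome 2, 25733007 to 25737260, 8 exon blocks, 1289 bp) had 1.98, 0.996 and 2.44 CPM in KO and 1.42, 2.10 and 2.13 CPM in WT. KO replicate 2 was the lowest and KO replicate 3 the highest library, and the WT values lay between them. The log2 change was -0.073 (SE 0.34, 95% interval -0.77 to 0.63, adjusted p = 0.991). Its partner Sohlh2 (ENSMUSG00000027794, chromosome 3, 55089449 to 55117378, 11 exon blocks, 2364 bp) had 9.06, 8.67 and 7.58 CPM in KO and 5.33, 9.56 and 7.73 CPM in WT. The KO libraries lay inside the WT range. The log2 change was 0.17 (SE 0.19, 95% interval -0.24 to 0.57, adjusted p = 0.977), an interval that leaves out a 2-fold change in either direction.

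Lhx8 (ENSMUSG00000096225, chromosome 3, 154011931 to 154036296, 10 exon blocks, 2532 bp) had 1.72, 2.53 and 0.742 CPM in KO and 1.82, 1.66 and 1.42 CPM in WT. The KO libraries held both the highest and the lowest value, and their coefficient of variation was 53.8%, against 12.1% in WT. Counting alone would give 16.7% in KO and 16.2% in WT, so the WT spread was below counting error. The difference in spread was not tested. The log2 change was 0.045 (SE 0.36, 95% interval -0.70 to 0.79, adjusted p = 0.995). Nobox (ENSMUSG00000029736, chromosome 6, 43280608 to 43286488, 10 exon blocks, 2012 bp) had 0.781, 0.747 and 0.901 CPM in KO and 0.473, 0.916 and 0.427 CPM in WT. All KO libraries lay above WT replicates 1 and 3 and below WT replicate 2. Its estimate was the highest of the 8, at 0.41 on the log2 scale (SE 0.44, 95% interval -0.50 to 1.32, adjusted p = 0.976), and it rested on 9 to 21 reads per library.

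Taf4b (ENSMUSG00000054321, chromosome 18, 14916302 to 15033416, 15 exon blocks, 5149 bp) was the most abundant of the 10. It had 615, 1015 and 576 reads in KO libraries and 664, 875 and 726 reads in WT libraries, or 32.0, 42.1 and 30.5 CPM in KO and 26.2, 38.2 and 34.4 CPM in WT. Replicate 2 was the highest library in each genotype. The log2 change was 0.088 (SE 0.14, 95% interval -0.22 to 0.39, adjusted p = 0.980), the narrowest interval of the 10. Counting error alone would give a coefficient of variation of 3.69% in KO and 3.64% in WT, and the libraries varied by 18.1% in KO and 18.6% in WT.

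The early oocyte products were sparse in both genotypes, as were Nobox and Lhx8 among the transcription factors. Gdf9 (ENSMUSG00000018238, chromosome 11, 53321850 to 53328731, 4 exon blocks, 2031 bp) had 24, 36 and 28 reads in KO libraries, or 1.25, 1.49 and 1.48 CPM, against 31, 31 and 17 reads in WT libraries, or 1.22, 1.35 and 0.806 CPM. KO replicate 1 lay inside the WT range and the other KO libraries above it. The log2 change was 0.32 (SE 0.34, 95% interval -0.39 to 1.03, adjusted p = 0.976). Bmp15 (ENSMUSG00000023279, X chromosome, 6226161 to 6232775, 2 exon blocks, 3060 bp) had 9, 16 and 6 reads in KO libraries and 14, 8 and 12 reads in WT libraries. The groups overlapped widely. KO libraries averaged 0.484 ± 0.17 CPM and WT libraries 0.490 ± 0.12 CPM (SD, n = 3 each), and the log2 change was 0.0031 (SE 0.47, 95% interval -0.97 to 0.98, adjusted p = 1.00).

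Zp3 (ENSMUSG00000004948, chromosome 5, 136008953 to 136017478, 8 exon blocks, 1323 bp) had 11, 6 and 7 reads in KO libraries and 11, 9 and 6 reads in WT libraries. Summed over a genotype these were 24 reads in KO and 26 in WT, or 0.386 CPM in KO (exact Poisson 95% interval 0.247 to 0.574) and 0.375 CPM in WT (0.245 to 0.549). Dppa3 (ENSMUSG00000046323, chromosome 6, 122603369 to 122607231, 5 exon blocks, 892 bp) had 4, 4 and 9 reads in KO libraries and 5, 7 and 4 reads in WT libraries. Its sums of 17 reads in KO and 16 in WT gave 0.273 CPM in KO (0.159 to 0.438) and 0.231 CPM in WT (0.132 to 0.375). These intervals cover counting error only. Without a low-count filter the log2 changes were 0.066 for Zp3 (95% interval -1.08 to 1.21, adjusted p = 0.989) and 0.26 for Dppa3 (95% interval -1.09 to 1.60, adjusted p = 0.980, edgeR). Both intervals include a 2-fold change in either direction, so a difference of that size was not excluded. RefSeq lists 1 pseudogene named after Dppa3, and reads from near-identical copies cannot be told apart in these counts.

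**Figure D2:**
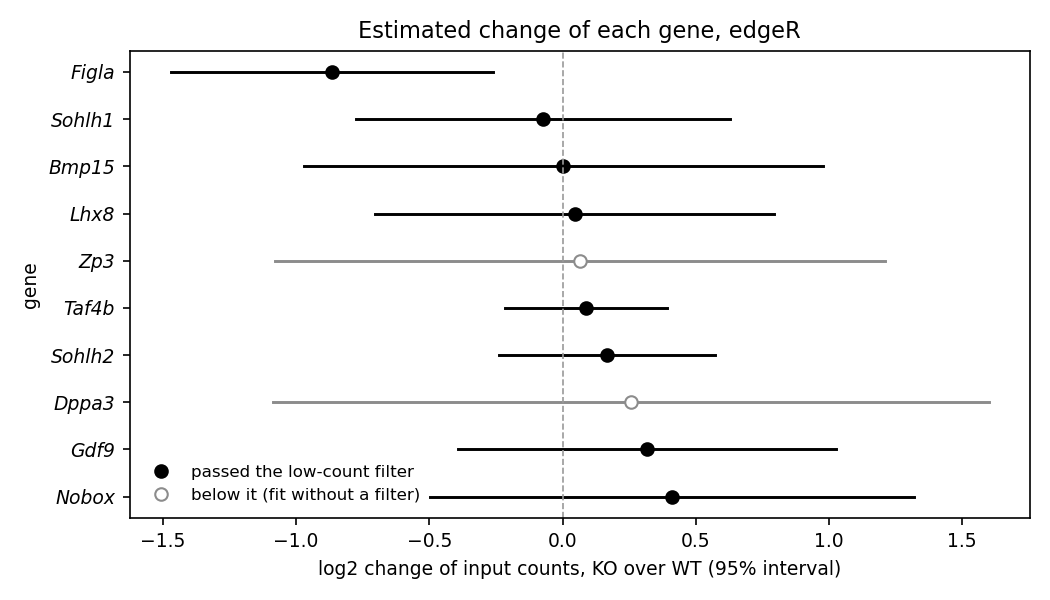
Estimated log2 change of input counts (KO over WT) with its 95% interval for each gene, from edgeR; open points are the 2 genes below the low-count filter, from the fit without a filter. The interval of Figla lies below 0, at -1.47 to -0.26 before adjustment for 23698 tests, and the intervals of the other 9 genes include 0.

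Levels of different genes were compared per length, as TPM computed over the annotated exonic length. In KO the order was Taf4b at 11.3 ± 2.57 TPM, Sohlh2 at 5.91 ± 0.56, Figla at 4.25 ± 1.23, Sohlh1 at 2.30 ± 0.90, Gdf9 at 1.15 ± 0.16, Lhx8 at 1.10 ± 0.63, Nobox at 0.666 ± 0.067, Dppa3 at 0.525 ± 0.31, Zp3 at 0.491 ± 0.18 and Bmp15 at 0.264 ± 0.10 TPM (SD, n = 3 each). The KO ranges separated Taf4b from Sohlh2, Figla from Sohlh1 and Sohlh1 from Gdf9, and every other pair of neighbours overlapped. In WT the order was Taf4b at 10.3 ± 1.92 TPM, Figla at 7.54 ± 2.92, Sohlh2 at 5.14 ± 1.44, Sohlh1 at 2.35 ± 0.51, Lhx8 at 1.04 ± 0.12, Gdf9 at 0.894 ± 0.22, Nobox at 0.485 ± 0.21, Zp3 at 0.451 ± 0.092, Dppa3 at 0.417 ± 0.12 and Bmp15 at 0.258 ± 0.065 TPM. The WT ranges separated Sohlh2 from Sohlh1, Sohlh1 from Lhx8 and Dppa3 from Bmp15. Figla ranked below Sohlh2 in KO and above it in WT, but its range overlapped that of Sohlh2 in each genotype. Among all genes tested, 67.8% had a mean TPM no higher than that of Taf4b. The same share was 54.3% for Figla, 52.8% for Sohlh2 and 4.20% for Bmp15.

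Summed over the 10 genes, the level was 25.4, 32.3 and 26.1 TPM in KO libraries and 22.3, 35.8 and 28.6 TPM in WT libraries. The KO libraries lay inside the WT range. Replicate 2 held the highest sum in each genotype, and the KO libraries averaged 27.9 ± 3.81 TPM, the WT libraries 28.9 ± 6.79 TPM (SD, n = 3 each). No p is given for a sum over chosen genes.

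Taken over all pairs, the 10 genes did not rise and fall together across the 6 input libraries, though single pairs did. Of 45 pairs, 25 had a Pearson correlation of log2 CPM above 0, with a median of 0.10 and a range from -0.95 to 0.80. These are descriptions over 6 libraries, which share library and depth, and in the rarest genes counting error is a large part of the spread (for Zp3 in KO, a coefficient of variation of 41.2%, where counting alone would give 35.4%). Sohlh2 and Taf4b were most alike to each other (r = 0.79), as were Nobox and Gdf9 (r = 0.80) and Lhx8 and Bmp15 (r = 0.75). Figla was most like Taf4b, at r = 0.45, and at r = 0.91 once group means were removed. The same step gave r = 0.79 for Sohlh2 and Taf4b, 0.70 for Nobox and Gdf9 and 0.75 for Lhx8 and Bmp15. KO replicate 2 held the highest value of the 6 libraries for 4 genes (Lhx8, Taf4b, Gdf9 and Bmp15) and the lowest for 3 (Sohlh1, Zp3 and Dppa3).

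The second comparison asked whether these transcripts differed in the anti-FMRP RIP between KO and WT ovaries. In ovaries without FMRP, the RIP values would be background of the pull-down rather than FMRP binding. FMRP protein was not measured in these data. The deposited table gives fold enrichments, a linear ratio of unstated denominator, for 14447 rows of 7525 genes. Of the 10 genes, Taf4b had 3 rows and the other 9 had 0. Presence in the table followed the input level. Of tested genes between 0.257 and 7.99 CPM, the range of the 9 genes, 608 of 11592 had a row (5.25%), against 51.7% of genes between 20 and 50 CPM, where Taf4b lay. In that last range 5.25% of genes had 3 or more rows. Absence of a row for the 9 genes is thus no measurement of their enrichment.

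**Figure D3:**
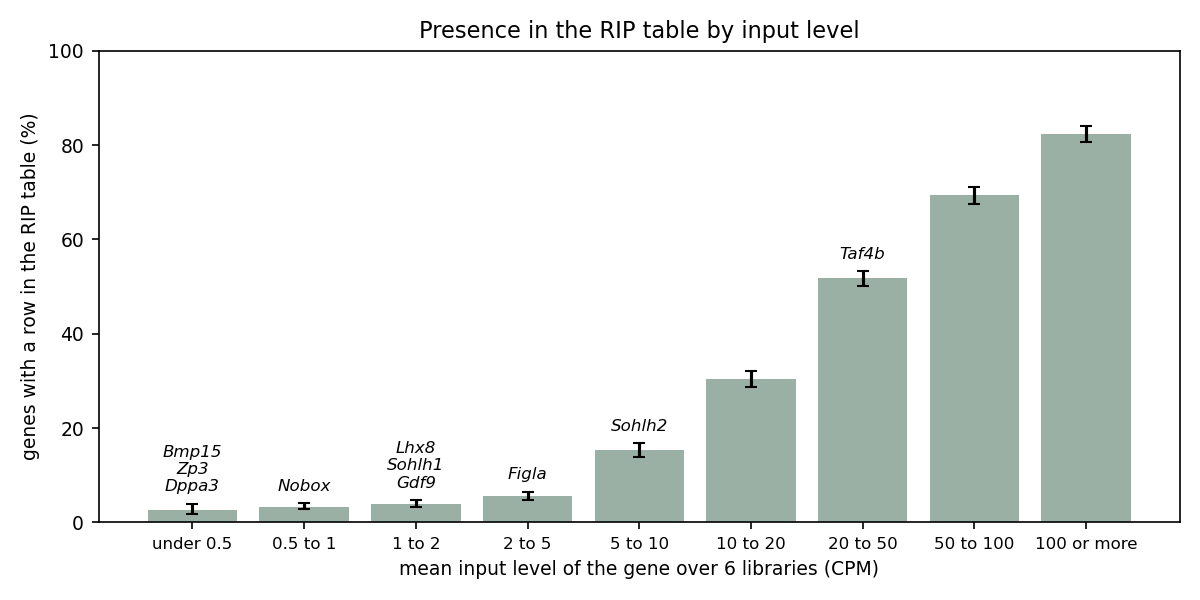
Share of tested genes with a row in the RIP table, in percent, by mean input level in CPM; error bars are Wilson 95% intervals, and names mark where each of the 10 genes falls (Zp3 and Dppa3, below the filter, are placed by level only). The share was 2.70% under 0.5 CPM and 82.4% at 100 CPM or more.

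The first Taf4b row in the deposited order had fold enrichments of 0.875, 1.61 and 1.08 in KO and 2.62, 2.21 and 1.94 in WT. The groups did not overlap, with all KO libraries below all WT libraries, as in 8.39% of the 14365 tested rows. KO libraries averaged 1.19 ± 0.38 and WT libraries 2.26 ± 0.34 (SD, n = 3 each), a ratio of KO over WT of 0.526. Of all rows, 7.86% had a KO mean no higher than this one, and 74.1% had a WT mean no higher than this one. On the log2(value + 1) scale, which understates changes of low values, the difference (KO minus WT) was -0.58 (SE 0.13, 95% interval -0.90 to -0.27), with an unadjusted p of 0.00300 and an adjusted p of 0.395 (limma). The row therefore did not pass. Lower values in KO at an unadjusted p under 0.05 were found in 5.98% of all tested rows, and 0% of rows passed after adjustment.

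The second row had 2.46, 1.24 and 1.82 in KO and 2.73, 2.98 and 1.88 in WT. KO replicate 1 lay above WT replicate 3, so that the groups overlapped. The difference was -0.32 (SE 0.20, 95% interval -0.78 to 0.13, adjusted p = 0.690, limma). The third row, with the highest ratios, had 2.04, 7.98 and 1.77 in KO and 5.93, 4.76 and 3.73 in WT. KO replicate 2 was the highest of the 6 libraries and the other KO libraries were the lowest. The difference was -0.44 (SE 0.45, 95% interval -1.48 to 0.60, adjusted p = 0.809), and without KO replicate 2 it was -0.98 (adjusted p = 0.484, limma).

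All 3 Taf4b rows had lower means in KO than in WT. The rows come from the same libraries and the same gene, so they are not independent. Of the 752 genes with exactly 3 rows, 156 had lower KO means in all 3 (20.7%). With log2 values averaged over the 3 rows, the difference was -0.45 (SE 0.17, adjusted p = 0.522, limma). Beside these ratios stood the Taf4b input, which did not pass the test and whose estimate, at 0.088 on the log2 scale, had the opposite sign.

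**Figure D4:**
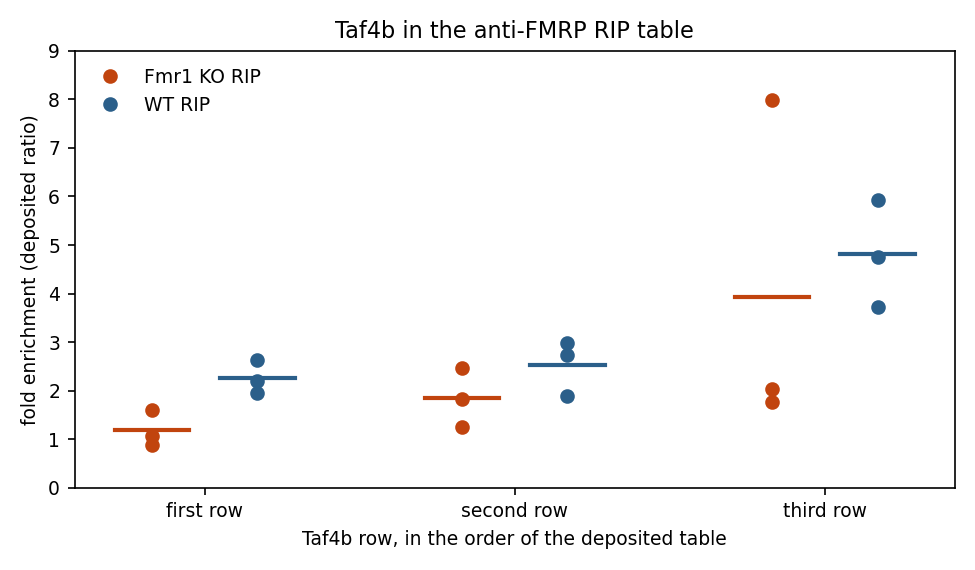
Fold enrichment (deposited linear ratio) of the 3 Taf4b rows in each RIP library, for 3 Fmr1 KO libraries (left of each pair) and 3 WT libraries (right); bars are group means. The groups are separate in the first row, and KO replicate 2, at 7.98, is the highest point of the third row.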

How the data were processed

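RNA of whole ovaries was measured in 12 libraries, 3 in each of 4 groups. Input files hold raw counts, as deposited. Per the file headers they were made with featureCounts 1.6.3 over exons of the Ensembl 104 annotation, with no option for strand, and the coordinates given are those of that annotation. The submitters' processing notes name the build GRCm38 and the tools BWA 0.7.12, FastQC, DESeq2 1.26.0 and MACS2 2.1.0, with no roles; treatment of reads across exon junctions is not given. Release 104 coordinates of the 10 genes differ from those RefSeq gives on GRCm38.p6, and which build the reads were aligned to is not stated. The counts stand for these genes only if that build was the one annotated, which was not tested. The Fmr1 identifier, counted in the same way, stood in KO input at 47.3% of WT (adjusted p = 0.00775, edgeR). No coordinate was converted. The RIP values are fold enrichments, a linear ratio made and deposited by the authors, without depth.

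Counts were tested with edgeR 4.0.16 in R 4.3.3 (TMM, filterByExpr, robust quasi-likelihood fit, KO over WT, all genes). Standard errors were taken as the size of the estimate over the root of F. CPM uses TMM-scaled totals. RIP ratios were tested with limma 3.58.1 on log2(value + 1), columns centred on their medians, rows with a mean of at least 1, KO minus WT. Adjusted p-values are Benjamini-Hochberg over all features. Replicate pairs differed by more than counting noise (chi-square per degree of freedom 8.04 to 14.2). Both fits were also run on simulated data, and no result here rests on those runs. The changed genes of the input run were drawn from better-counted genes only, so it does not cover the rarest of the genes named here. The spread behind each p-value is that between ovary pools.

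Alternatives were DESeq2 1.42.0, other scalings and filters, other pseudocounts, a replicate block and each library left out. All 10 genes and Fmr1 are named, whatever their values. The genes and lists were chosen with earlier results of these data known. Names come from the identifiers given for the 10 genes. The RefSeq table held identifiers of the count files for 0 of 32 further symbols of germ cell, oocyte and other ovarian cell types, so those lists and the tissue's markers were not analysed here. Of the 10 gene spans, only that of Taf4b overlapped another annotated gene, which had 6 reads over the 6 input libraries.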

Additional observations from a re-analysis of the deposited data

How the results depend on the processing

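No gene of the 10 passed under any alternative run, in input or in RIP (0 in each). The count of all input genes passing, 10, was 113 with no low-count filter, 20 with the replicate block, 41 with DESeq2 and 5 to 37 with 1 library left out (5 without KO replicate 2, 37 without KO replicate 1 and 28 without WT replicate 2); the cause was not tested. The count of RIP rows, 0, was 1 with no filter on low rows, and that row was Fmr1 (adjusted p = 0.0216, limma). Figla kept a negative estimate in all 12 alternatives, from -1.09 to -0.52 on the log2 scale, with adjusted p from 0.210 to 0.999, and Nobox and Gdf9 kept positive ones. Estimates near 0 changed sign, none of them past the threshold: Bmp15 was -0.0029 with no filter, -0.012 with the replicate block, -0.0036 with DESeq2 and -0.31 to 0.22 with a library left out; Lhx8 was -0.058 with the replicate block and -0.41 to 0.39 with a library left out. With a library left out, Sohlh1 ran from -0.35 to 0.24, Sohlh2 from -0.034 to 0.38 and Taf4b from -0.072 to 0.21. The ratio of the summed level, KO over WT, was 0.967 in TPM, 1.03 in CPM and 0.896 without Taf4b. The first Taf4b RIP row stayed negative in all 12 alternatives that kept it, from -0.91 (pseudocount 0.1) to -0.13 (pseudocount 10), with adjusted p from 0.389 to 0.650. Deviations from the group means were not positively correlated between KO and WT libraries of the same replicate number (-0.11, -0.051 and -0.071 in input and -0.60, -0.34 and -0.22 in RIP). With so few libraries per group these values cannot exclude that replicate numbers pair the samples. The replicate block changed no call of the 10 genes. Zp3 and Dppa3 were fitted only without the low-count filter. Depth limits Nobox, Bmp15, Zp3 and Dppa3, at 21 reads or fewer per library.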

Other observations

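Set against the other 9 genes within each library, Figla took a smaller share of reads in KO. It made up 3.45%, 4.47% and 4.19% of the reads summed over the 10 genes in KO libraries and 6.47%, 9.25% and 6.90% in WT libraries, so that the groups did not overlap. Of the 10 genes, Figla was the 1 whose share did not overlap between the groups. In CPM, 10.9% of all tested genes had groups that did not overlap, and the Figla groups did overlap. The like figure for shares or ratios over all genes was not computed. Taf4b held 63.2% to 69.8% of the summed reads, so this share is mostly one of Figla against Taf4b. With Taf4b left out of the sum, the Figla share was 9.68%, 14.8% and 12.1% in KO libraries and 18.5%, 25.1% and 20.8% in WT libraries. The shares of Figla and Sohlh2, 2 of the 9 genes, did not overlap, and that of Sohlh2 was the higher in KO. Parts of 1 sum are not independent, since a smaller share of Figla leaves a larger one for the rest. In CPM the Sohlh2 groups overlapped. Set against single genes, the Figla ratio did not overlap between the groups for 4 of 9 (Nobox, Sohlh2, Taf4b and Gdf9) and overlapped for the other 5, Sohlh1 and Lhx8 among them. All 9 ratios hold the same Figla reads, so they are not separate results. Against Sohlh1 it was 0.868, 2.71 and 0.804 Figla reads per read in KO libraries and 1.83, 2.67 and 1.67 in WT libraries. These ratios were chosen after the values were seen and have no test, and Figla did not pass the test over all genes (adjusted p = 0.610, edgeR).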
